A study of Rattus norvegicus with 9 samples.

Results

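The 10 genes described here are well-known transcriptional targets of the tumour suppressor p53: Mdm2, Cdkn1a, Gadd45a, Ccng1, Plk2, Plk3, Bax, Perp, Eda2r and Trp53inp1. They were measured by sequencing of poly(A) RNA from primary chondrocytes, the cells of cartilage, of wild-type (WT) rats. They were chosen on measured values of the same libraries, because several of them lay below the control level in the co-cultured cells. Of the 17588 genes in the table these are 10. By symbol 9 were found, and Trp53inp1, which the table lists as Tp53inp1, was matched through its RefSeq gene ID. All 10 listed genes passed the filter for testing, a level of 1 FPKM or more in 3 or more libraries, as did 11732 genes in all. FPKM are fragments scaled for transcript length and for the mapped fragments of the library. Eda2r passed through its control and IL-1β libraries, since its co-culture libraries were all under 1 FPKM, and Perp passed through its control and co-culture libraries. The filter thus favours low values of Eda2r in co-culture and of Perp with IL-1β.

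There were 3 groups of 3 libraries, all from WT primary rat chondrocytes. The control chondrocytes were grown in routine culture without IL-1β, an inflammatory cytokine that acts on cartilage in joint disease. The second group received IL-1β. The third group received IL-1β and was co-cultured with dermal fibroblasts that sat in the upper chamber of a transwell, with the chondrocytes in the lower one. None of the 3 groups had fibroblasts without IL-1β. No source used here gives the dose and times of IL-1β, the length of co-culture or the age and number of the rats. The labels do not say whether a group holds more than 1 animal or culture, so the p-values rest on a spread between libraries that may be only technical.

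p53 is a transcription factor that is held at a low level by MDM2, a ubiquitin ligase which marks it for destruction. When DNA damage or another stress frees p53 from MDM2, it switches on genes that stop the cell cycle, repair DNA or bring on cell death, and also Mdm2 itself, which closes a negative feedback loop. Several of these genes also answer to other transcription factors, so their mRNA is not a measure of p53 alone. In cartilage, p53 and p21, the product of Cdkn1a, are commonly followed as markers of chondrocyte stress and senescence.

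RefSeq's promoter table (rat, GRCr8) held 8 of the 10 genes, and no entry was found there for Bax or Tp53inp1. The 250 bases before the table's start site are printed for the genes with a match to the p53 consensus decamer, and for Mdm2 and Plk2, which differed in direction between the co-culture and IL-1β groups. Each is written 5′ to 3′ along the gene. Capitals mark matches, on either strand, to any of the motifs searched, which were the p53 consensus decamer, the TATA box (TATAAA), the CCAAT box, the GC box core (GGGCGG), the E-box (CACGTG) and the cyclic AMP response element (TGACGTCA).
Cdkn1a (chr20:7150682-7150931, plus strand): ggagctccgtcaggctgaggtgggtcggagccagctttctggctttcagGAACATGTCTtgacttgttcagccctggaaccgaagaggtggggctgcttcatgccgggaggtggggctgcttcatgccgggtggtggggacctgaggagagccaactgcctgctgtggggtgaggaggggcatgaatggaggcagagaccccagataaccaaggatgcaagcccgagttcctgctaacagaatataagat
Gadd45a (chr4:97486800-97487049, minus strand): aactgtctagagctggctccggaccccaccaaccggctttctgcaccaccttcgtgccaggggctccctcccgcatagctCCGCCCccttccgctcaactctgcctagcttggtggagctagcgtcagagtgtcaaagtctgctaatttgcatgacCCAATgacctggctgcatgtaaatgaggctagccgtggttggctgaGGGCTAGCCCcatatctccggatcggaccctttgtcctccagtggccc
Ccng1 (chr10:25684877-25685126, minus strand): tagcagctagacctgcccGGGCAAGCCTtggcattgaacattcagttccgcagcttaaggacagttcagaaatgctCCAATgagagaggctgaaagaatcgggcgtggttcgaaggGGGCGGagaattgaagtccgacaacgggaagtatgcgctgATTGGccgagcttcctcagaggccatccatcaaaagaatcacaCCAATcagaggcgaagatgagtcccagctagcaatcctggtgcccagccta
Mdm2 (chr7:55200792-55201041, minus strand): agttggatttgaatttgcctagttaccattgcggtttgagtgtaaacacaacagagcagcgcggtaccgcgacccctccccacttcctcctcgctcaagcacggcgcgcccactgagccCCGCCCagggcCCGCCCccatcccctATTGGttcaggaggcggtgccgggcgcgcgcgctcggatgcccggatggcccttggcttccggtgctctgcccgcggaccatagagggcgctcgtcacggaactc
Plk2 (chr2:43702286-43702535, plus strand): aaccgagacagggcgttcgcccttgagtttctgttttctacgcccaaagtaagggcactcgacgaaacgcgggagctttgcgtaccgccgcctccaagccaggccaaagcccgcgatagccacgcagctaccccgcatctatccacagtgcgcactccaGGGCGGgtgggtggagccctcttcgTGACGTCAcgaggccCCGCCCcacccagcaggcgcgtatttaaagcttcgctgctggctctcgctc

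The decamer matched in 3 of the 8 promoters, against 6.64% of all 33465 promoters of the same length. Counted back from the start, the match lay at bases -201 to -192 in Cdkn1a, -48 to -39 in Gadd45a and -232 to -223 in Ccng1. GGGCGG was in 6 of the 8 (30.5% of all promoters), and CCAAT was in 4 (34% of all). TATAAA was in Eda2r alone among the 8 (12.9% of all), and CACGTG was in none (5.59% of all). TGACGTCA was in Plk2 alone among the 8 (1.59% of all), at bases -66 to -59. A p53 response element is a pair of such decamers close together, and each of the 3 promoters held only 1 exact match. Matches with a mismatch were not searched for. The bases beside the match differ from the decamer at 1 position in Cdkn1a (tgacttgttc, directly after it) and in Ccng1 (agacctgccc, directly before it). The count of exact matches thus does not show that a full element is missing. Binding of p53 was not measured. These are letter matches in 1 window per gene, which ends at the start, so introns and other bases after it were not searched. Genes with further start sites also have windows that were not searched.

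The summed FPKM of a library was 771058 to 782435 in the control group, 796262 to 832248 in the IL-1β group and 809839 to 811665 in the co-culture group, and 11337 to 11522 genes reached 1 FPKM. Every library correlated more closely with its own group (Pearson r at least 0.994 across genes) than with any other group (at most 0.990). The files hold no counts, so the depth is unknown. The label chondrocyte was checked against 9 cartilage markers, all of them detected. Their summed level was 1904 to 1988 FPKM in control, 439 to 459 with IL-1β and 619 to 675 in co-culture. The dermal fibroblast markers Dpp4, Pi16, Cd34, Clec3b and Entpd1 stayed under the filter in all groups, while the sum of all 13 markers on that list, most of it matrix genes, was 3760 to 3891, 2818 to 2840 and 2486 to 2571 FPKM. The 8 tested markers of that list went both ways. With IL-1β against control 4 were higher and 2 lower (log2 differences from -1.60 to 3.28). In co-culture 2 were higher and 3 lower than with IL-1β alone, and 3 higher and 3 lower than in control (from -1.13 to 2.54 against control). The 8 skeletal muscle markers summed to 225 to 233 FPKM in control, 509 to 538 with IL-1β and 485 to 538 in co-culture. Macrophage markers summed to 18.2 to 24.6 FPKM over all libraries, keratinocyte markers to 1.21 to 2.35, endothelial markers to 0.76 to 1.1 and the 1 erythroid marker to 0 to 0.22. The part of these shifts in the results on p53 targets was not tested. In bulk RNA, fewer cells of a type and less RNA per cell cannot be told apart.

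Across the 10 genes, addition of fibroblasts to IL-1β-treated chondrocytes came with lower mRNA of 8 targets and higher mRNA of Plk2 and Perp. The 8 include Eda2r. Eda2r and Perp passed the filter only through groups where they were higher, which favours these directions, so their calls add no support. The test was limma on log2(FPKM + 1), with p-values adjusted by Benjamini-Hochberg over all 11732 genes and called under 0.05. Among all tested genes 10.1% were called lower and 11.9% higher in this comparison. The median log2 difference was -0.27 for the 10 genes and 0.02 for all tested genes. Under IL-1β alone, 4 of the 10 rose against control (Cdkn1a, Mdm2, Ccng1 and Tp53inp1), 2 fell (Gadd45a and Perp) and 4 did not pass, where 26.5% of all tested genes were called higher and 20.2% lower. The median log2 difference there was 0.07, against 0.02 over all tested genes. Between co-culture and control, 7 of the 10 had all 3 co-culture libraries below all 3 control libraries, none had them all above, and 3 overlapped. This pattern was seen in 17.0% (below) and 29.6% (above) of all tested genes. The genes were picked for it, so it is given without a test. The other comparisons share the co-culture or the control libraries with the one that picked them, and are not independent of it.

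**Figure D1:**
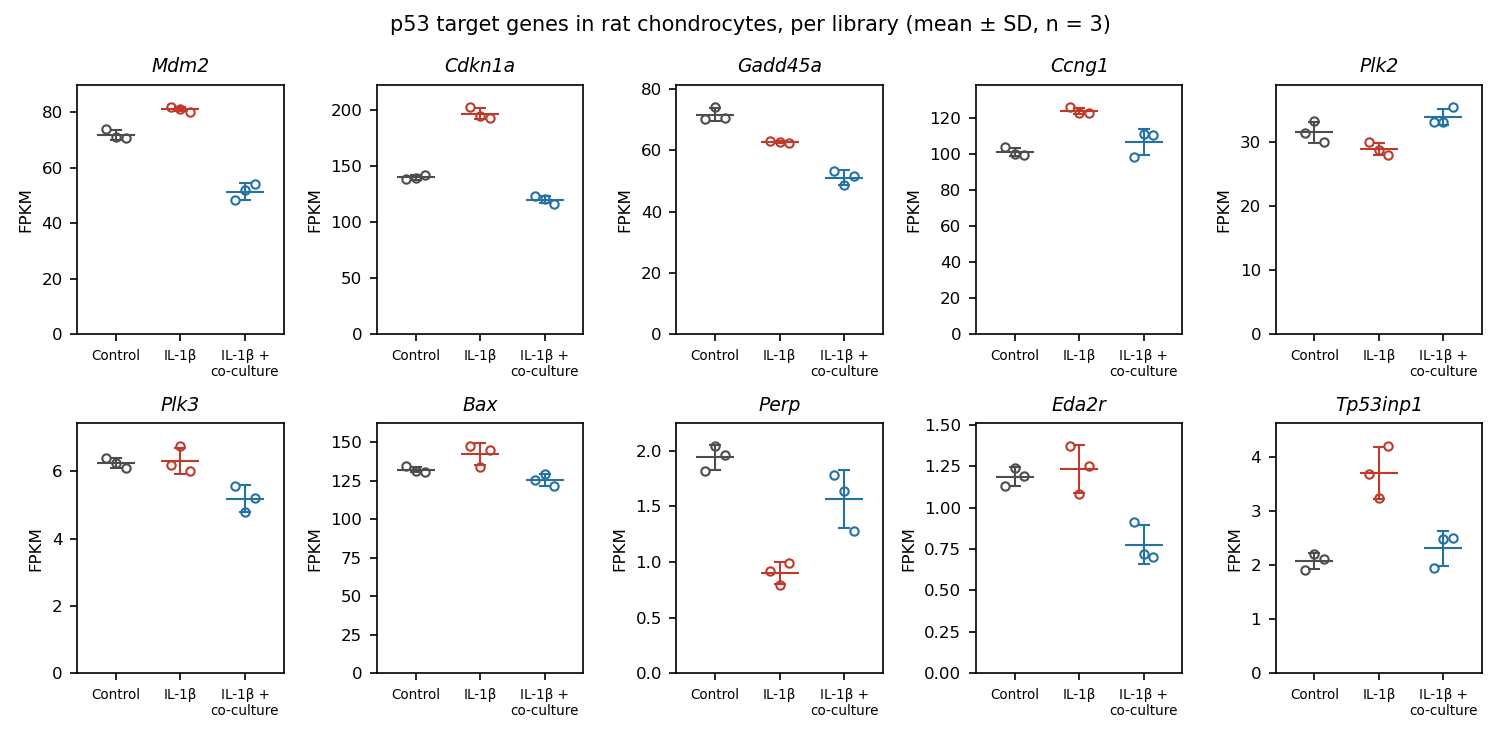
Level of each of the 10 p53 target genes in FPKM (vertical axis, from 0) in the 9 libraries by group (horizontal axis). Circles are libraries and bars are the mean ± SD of 3. Cdkn1a was highest in the IL-1β libraries (192.78 to 202.23 FPKM) and lowest in the co-culture libraries (116.2 to 122.89), whereas Perp was lowest with IL-1β (0.79 to 0.99).

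Mdm2 (gene ID 314856), which encodes the ligase that restrains p53, was measured at 73.9, 70.93 and 70.61 FPKM in the control libraries (71.8 ± 1.81, SD, n = 3). With IL-1β it was at 81.79, 81.23 and 80.22 FPKM (81.1 ± 0.796), and in co-culture at 48.33, 51.88 and 54.07 FPKM (51.4 ± 2.90). The 3 groups did not overlap: the IL-1β libraries were the highest and the co-culture libraries the lowest. Mdm2 rose with IL-1β by 0.17 on the log2 scale (SE 0.04, limma adjusted p = 0.00566). That call was lost after scaling the libraries to a common sum (0.11, adjusted p = 0.061) or by quantiles (0.11, adjusted p = 0.062). In co-culture Mdm2 was 1.58-fold lower than with IL-1β alone (log2 difference -0.65, 95% interval -0.74 to -0.56, adjusted p = 3.84e-06), and 1.40-fold below control.

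Cdkn1a (gene ID 114851), which encodes the cyclin-dependent kinase inhibitor p21, was among the 10 the gene with the strongest fall in co-culture against IL-1β alone. Its level was 138.47, 138.77 and 142.03 FPKM in control (139.8 ± 1.97, SD, n = 3), 202.23, 194.31 and 192.78 with IL-1β (196 ± 5.07), and 122.89, 120.73 and 116.2 in co-culture (119.9 ± 3.41). The groups were fully separate, in the same order as for Mdm2. IL-1β raised Cdkn1a 1.41-fold (log2 difference 0.49, SE 0.03, limma adjusted p = 5.97e-07). Co-culture lay 1.64-fold below IL-1β alone (log2 difference -0.71, 95% interval -0.77 to -0.64, adjusted p = 4.62e-07) and 1.17-fold below control.

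Gadd45a (gene ID 25112), whose product binds stress kinases and the CDK1 complex in growth arrest, fell at each step. It measured 70.28, 74.11 and 70.47 FPKM in control (71.6 ± 2.16, SD, n = 3), 63.06, 62.72 and 62.52 with IL-1β (62.8 ± 0.273), and 53.23, 48.6 and 51.67 in co-culture (51.2 ± 2.36). No library of one group reached the range of another. The log2 difference was -0.19 for IL-1β against control (limma adjusted p = 0.0023) and -0.29 for co-culture against IL-1β alone (95% interval -0.37 to -0.21, adjusted p = 0.00046). Gadd45a thus differed in direction from Mdm2 and Cdkn1a under IL-1β, while it moved in their direction in co-culture.

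Ccng1 (gene ID 25405) encodes cyclin G1, which brings a phosphatase to MDM2. Its control libraries were at 103.64, 100.07 and 99.1 FPKM (101 ± 2.39, SD, n = 3) and its IL-1β libraries at 125.8, 122.85 and 122.65 FPKM (124 ± 1.76). The co-culture libraries were at 98.24, 110.7 and 110.34 FPKM (106 ± 7.09). All IL-1β libraries stood above the rest, while the co-culture and control ranges overlapped. Ccng1 rose with IL-1β by 0.29 on the log2 scale (limma adjusted p = 0.00043) and was lower in co-culture than with IL-1β alone (log2 difference -0.22, 95% interval -0.32 to -0.12, adjusted p = 0.00679).

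The 2 polo-like kinases on the list went opposite ways in co-culture. Plk2 (gene ID 83722), an early stress-response kinase with a part in centriole duplication, was at 31.43, 33.28 and 30.0 FPKM in control (31.6 ± 1.64, SD, n = 3), 30.02, 28.84 and 28.1 with IL-1β (29.0 ± 0.968), and 33.23, 33.27 and 35.51 in co-culture (34.0 ± 1.31). Its co-culture libraries were all above its IL-1β libraries and overlapped with control. The rise against IL-1β alone was 0.22 on the log2 scale (95% interval 0.12 to 0.33, limma adjusted p = 0.00714). The difference with IL-1β against control, -0.12, missed the threshold (adjusted p = 0.059) and passed it under all 3 other scalings of the libraries (adjusted p = 0.00595 to 0.0271).

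Plk3 (gene ID 58936), a kinase of the DNA damage and oxidative stress responses, was at a lower level of 6.39, 6.25 and 6.1 FPKM in control (6.25 ± 0.145, SD, n = 3) and 6.2, 6.75 and 6.0 with IL-1β (6.32 ± 0.388). In co-culture it was at 5.57, 4.79 and 5.22 FPKM (5.19 ± 0.391), under every library of the other groups. The difference with IL-1β was 0.01 on the log2 scale (95% interval -0.13 to 0.15, limma adjusted p = 0.887). Plk3 fell in co-culture against IL-1β alone by 0.24 on the log2 scale (adjusted p = 0.021). This call was lost without IL-1β replicate 2 (adjusted p = 0.0758) or without co-culture replicate 2 (adjusted p = 0.0736).

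**Figure D2:**
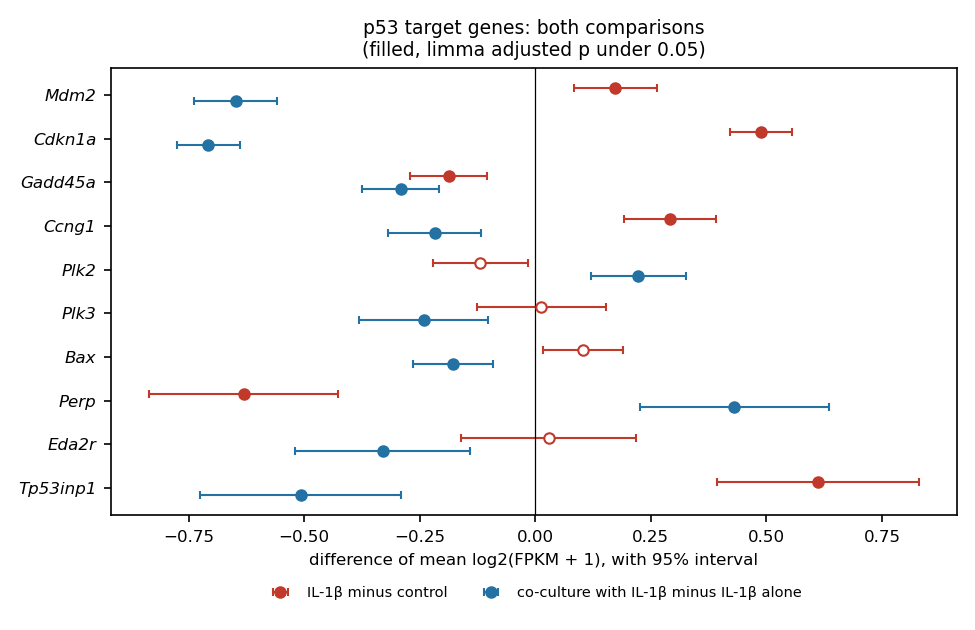
Difference of mean log2(FPKM + 1) with its 95% interval (horizontal axis) for each of the 10 p53 target genes (vertical axis), in red for IL-1β minus control and in blue for co-culture with IL-1β minus IL-1β alone. Filled points passed a limma adjusted p of 0.05: 6 of 10 in red and 10 of 10 in blue, of which 8 lie below 0. Of all tested genes 26.5% were called higher and 20.2% lower in the red comparison, and 11.9% and 10.1% in the blue one. The filter favours the filled points of Perp and the blue one of Eda2r, so they add no support.

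Among the targets linked to cell death, Bax (gene ID 24887), the pore-forming BCL2 relative of the mitochondrial outer membrane, had the highest level. It measured 134.22, 131.39 and 130.91 FPKM in control (132 ± 1.79, SD, n = 3), 147.38, 134.12 and 145.14 with IL-1β (142 ± 7.10), and 125.58, 129.34 and 121.61 in co-culture (125.5 ± 3.87). IL-1β replicate 2 reached into the control range, and every co-culture library lay below every other library. The difference with IL-1β, 0.10 on the log2 scale, missed the threshold (limma adjusted p = 0.0503) and passed it without IL-1β replicate 2 (adjusted p = 0.00733). Bax fell in co-culture against IL-1β alone by 0.18 on the log2 scale (95% interval -0.26 to -0.09, adjusted p = 0.00903). Of the 7 genes whose co-culture libraries all lay below control, its gap was the smallest on the log2 scale (-0.07).

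Perp (gene ID 292949), a membrane protein of cell junctions that p53 induces in dying cells, ran against the majority. It was at 1.82, 2.04 and 1.96 FPKM in control (1.94 ± 0.111, SD, n = 3), 0.92, 0.79 and 0.99 with IL-1β (0.900 ± 0.101), and 1.78, 1.64 and 1.28 in co-culture (1.57 ± 0.258). All 3 IL-1β libraries were the lowest, and the co-culture libraries stood between them and control. Perp was 2.16-fold lower with IL-1β than in control (log2 difference -0.63, limma adjusted p = 0.000296) and 1.74-fold higher in co-culture than with IL-1β alone (log2 difference 0.43, adjusted p = 0.00812). The filter favours both directions, since Perp passed it only through the other groups, so these p-values are given as description. At these low levels the log2(FPKM + 1) scale understates the change: with a pseudocount of 0.1 the log2 differences of Perp were -1.03 and 0.73.

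Eda2r (gene ID 296872), a receptor of the tumour necrosis factor family for the ectodysplasin isoform EDA-A2, was close to the filter. It was at 1.13, 1.24 and 1.19 FPKM in control (1.19 ± 0.055, SD, n = 3), 1.37, 1.08 and 1.25 with IL-1β (1.23 ± 0.146), and 0.91, 0.72 and 0.7 in co-culture (0.777 ± 0.116). The co-culture libraries were below all others, and the control libraries lay within the IL-1β range. The difference with IL-1β was 0.03 on the log2 scale (95% interval -0.16 to 0.22, limma adjusted p = 0.808). Eda2r was 1.59-fold lower in co-culture than with IL-1β alone (log2 difference -0.33, adjusted p = 0.0206). The filter favours this direction, since Eda2r passed it only through the other groups, so this p-value is given as description. At so low a level the log2 difference depends on the pseudocount, and was -0.61 with a pseudocount of 0.1 and -0.11 with one of 5. Leaving out IL-1β replicate 1 or 3 or co-culture replicate 2 or 3 ended this call (adjusted p = 0.0602 to 0.0749).

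Tp53inp1 (gene ID 297822) encodes a stress-induced nuclear and autophagy protein that promotes the death-related activity of p53. It was at 1.91, 2.2 and 2.11 FPKM in control (2.07 ± 0.148, SD, n = 3), 3.68, 3.24 and 4.2 with IL-1β (3.71 ± 0.481), and 1.94, 2.48 and 2.51 in co-culture (2.31 ± 0.321). The IL-1β libraries stood above all others, and co-culture and control overlapped. Tp53inp1 rose 1.79-fold with IL-1β (log2 difference 0.61, limma adjusted p = 0.000574) and was 1.60-fold lower in co-culture than with IL-1β alone (log2 difference -0.51, adjusted p = 0.00492). With a pseudocount of 5 the log2 differences were 0.30 and -0.25.

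Mdm4, which encodes a relative of MDM2 that binds and inhibits p53, was at 11.7 ± 0.889, 10.3 ± 0.827 and 12.4 ± 0.529 FPKM in control, IL-1β and co-culture (SD, n = 3 each). Of the 16 regulators of p53 that were tested, Mdm4 was the only one called in co-culture against IL-1β alone (log2 difference 0.25, adjusted p = 0.0283), and the call was lost with no filter or without IL-1β replicate 1 or 2 or co-culture replicate 1 or 3 (adjusted p up to 0.0896). In this comparison 11.9% of all tested genes were called higher and 10.1% lower. No gene of the regulator list was called lower by limma, and 2 were lower at an unadjusted p under 0.05. With no filter 1 was called lower, as was Hipk2 with no mean-variance trend (adjusted p = 0.0312). With IL-1β against control, 6 of the 16 rose and 2 fell, where 26.5% and 20.2% of all tested genes were called. The split of the 16 turned to 1 and 4 after scaling to a common sum and to 2 and 5 after quantile scaling. Chek1, a checkpoint kinase gene, was among those that rose with IL-1β (26.0 ± 0.577 to 29.3 ± 0.205 FPKM, log2 difference 0.17, adjusted p = 0.0028). The Chek1 call was lost after scaling to a common sum (limma adjusted p = 0.0526). Rfwd2, also known as Cop1, encodes another ubiquitin ligase of p53. It fell with IL-1β (49.5 ± 1.48 to 41.4 ± 2.00 FPKM, log2 difference -0.25, adjusted p = 0.00051).

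**Figure D3:**
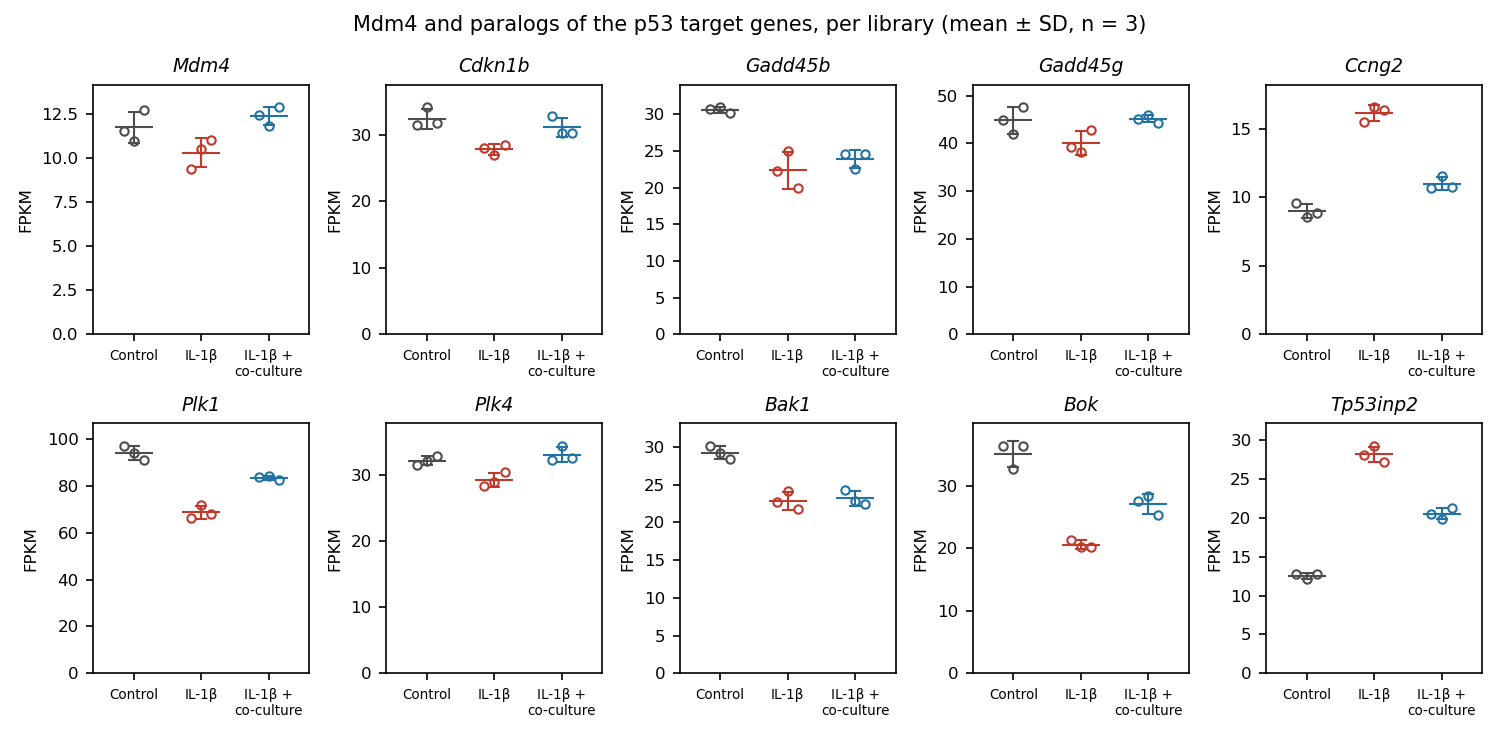
Level in FPKM (vertical axis, from 0) of Mdm4 and 9 paralogs of the p53 target genes in the 9 libraries by group (horizontal axis). Circles are libraries and bars are the mean ± SD of 3. Ccng2 and Tp53inp2 were highest with IL-1β (means of 16.2 and 28.2 FPKM), whereas Plk1 and Bok were lowest there (68.6 and 20.6 FPKM).

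The other p53 targets were read from a list of 34 genes, of which 33 were tested. In co-culture against IL-1β alone 11 of the 33 fell, and the rest did not pass, where 10.1% of all tested genes were called lower and 11.9% higher. None was higher by limma, at an adjusted or at an unadjusted p under 0.05, and the median log2 difference was -0.07 (0.02 over all tested genes). The genes that fell were Zmat3, Btg2, Bbc3, Fas, Aen, Ddit4, Gdf15, Sfn, Dram1, Rap2b and Cd82. The Sfn call (adjusted p = 0.0363) was lost in 9 of 18 settings, among them the omission of any IL-1β or co-culture library, and that of Bbc3 (adjusted p = 0.0288) in 6 of 18. With IL-1β against control 17 of the 33 rose and 3 fell (Phlda3, Epha2 and Pltp), with a median of 0.21 (0.02 over all), where 26.5% and 20.2% of all tested genes were called. The split of the 33 was 13 and 8 after scaling to a common sum or by quantiles. Against control, the co-culture group had 8 of the 33 higher and 5 lower, where 21.8% and 12.2% of all tested genes were called, and 6 higher and 6 lower under those 2 scalings. Ddit4, an inhibitor of mTORC1 signalling, was at 21.2 ± 0.804, 59.6 ± 1.90 and 33.1 ± 0.80 FPKM in control, IL-1β and co-culture (SD, n = 3 each). It rose with IL-1β (log2 difference 1.45, limma adjusted p = 1.03e-09) and fell in co-culture against IL-1β alone (log2 difference -0.83, adjusted p = 7.44e-07). Gdf15, a secreted stress hormone, went from 2.63 ± 0.611 to 9.89 ± 1.04 and 1.15 ± 0.385 FPKM. It was 8.62-fold lower in co-culture than with IL-1β alone (log2 difference -2.35, adjusted p = 5.3e-06), and the log2 difference moved to -1.28 with a pseudocount of 5. Fas, the death receptor, went from 8.20 ± 0.954 to 17.0 ± 0.340 and 10.7 ± 0.708 FPKM, a log2 rise of 0.97 and a fall of 0.62 (adjusted p = 2.54e-06 and 0.000266). Cd82, a tetraspanin and metastasis suppressor, went from 83.2 ± 1.05 to 135 ± 3.39 and 115 ± 0.265 FPKM. It was lower in co-culture than with IL-1β alone (log2 difference -0.22, adjusted p = 0.000256) and higher than in control (0.47, adjusted p = 6.16e-07).

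**Figure D4:**
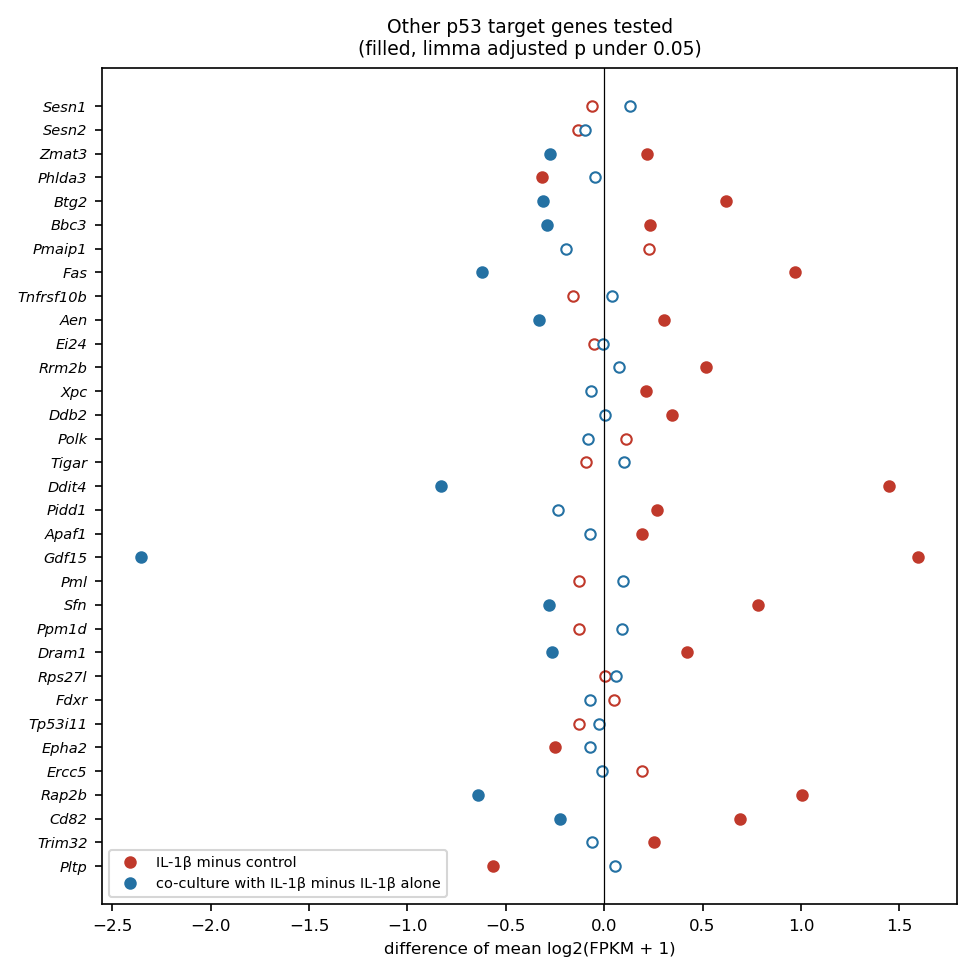
Difference of mean log2(FPKM + 1) (horizontal axis) of the 33 other p53 target genes that were tested (vertical axis), in red for IL-1β minus control and in blue for co-culture with IL-1β minus IL-1β alone. Filled points passed a limma adjusted p of 0.05: 20 in red, 17 of them above 0, and 11 in blue, all below 0. Of all tested genes 26.5% were called higher and 20.2% lower in the red comparison, and 11.9% and 10.1% in the blue one.

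A list of paralogs of the 10 genes that are not classed as p53 targets here held 16 genes, of which 14 were tested. The 14 include Eda, which encodes the ectodysplasin ligand of the Eda2r product and is not a paralog. Eda was not called with IL-1β against control (limma adjusted p = 0.315) or in co-culture against IL-1β alone (0.293), but counts in the medians. In co-culture against IL-1β alone 6 rose (Cdkn1b, Gadd45g, Plk1, Plk4, Bok and Pmp22) and 2 fell (Ccng2 and Tp53inp2), where 11.9% and 10.1% of all tested genes were called, with a median log2 difference of 0.11 (0.02 over all). Settings that left 3 higher calls included quantile scaling, no mean-variance trend, and leaving out IL-1β replicate 1 or co-culture replicate 2. Scaling to a common sum or by median of ratios, no filter and the replicate block each left 4. The calls of Cdkn1b, Gadd45g and Pmp22 were lost in 10, 11 and 8 of 19 settings. With IL-1β against control 3 rose and 9 fell, where 26.5% and 20.2% of all tested genes were called. Cdkn1b, which encodes the inhibitor p27, was at 32.5 ± 1.49, 27.8 ± 0.831 and 31.1 ± 1.45 FPKM in control, IL-1β and co-culture (SD, n = 3 each), so its mean was lowest in the group where that of its paralog Cdkn1a was highest. The difference between the paralogs was not tested. Gadd45b was at 30.6, 22.4 and 23.9 FPKM and Gadd45g at 44.8, 40.1 and 45.1 FPKM on average, and neither was lower in co-culture than with IL-1β alone as Gadd45a was. Ccng2, encoding cyclin G2, shared the direction of Ccng1 in both comparisons (9.0 ± 0.530, 16.2 ± 0.560 and 11.0 ± 0.482 FPKM; log2 differences 0.78 and -0.52, limma adjusted p = 1.11e-06 and 1e-04). Tp53inp2 likewise shared that of Tp53inp1 (12.6 ± 0.384, 28.2 ± 0.999 and 20.5 ± 0.725 FPKM; log2 differences 1.11 and -0.44, adjusted p = 1.52e-08 and 7.37e-05). Plk1, the mitotic polo-like kinase, fell with IL-1β from 93.9 ± 2.96 to 68.6 ± 2.71 FPKM and rose to 83.5 ± 0.850 in co-culture (log2 differences -0.45 and 0.28, adjusted p = 3.57e-06 and 0.000402). Bok, a BCL2 relative like Bax, went from 35.2 ± 2.07 to 20.6 ± 0.673 and 27.1 ± 1.58 FPKM (adjusted p = 2.09e-06 and 0.000894). Bok thus moved opposite to Bax in co-culture.

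Cell-cycle genes were read from a list of 30 cyclin, CDK and E2F-dependent genes, all tested. Whether p21 had a part in their levels was not tested. In co-culture against IL-1β alone 12 of the 30 rose and 1, the cyclin E gene Ccne1, fell, while 11.9% and 10.1% of all tested genes were called. The median log2 difference was 0.10. With IL-1β against control 8 rose and 13 fell, where 26.5% and 20.2% of all tested genes were called. The split of the 30 was 4 and 14 after scaling to a common sum or by quantiles. Cdc20, an activator of the anaphase-promoting complex, was at 173 ± 2.6, 119 ± 4.70 and 153 ± 4.30 FPKM in control, IL-1β and co-culture (SD, n = 3 each; log2 differences -0.54 and 0.36, limma adjusted p = 7.47e-07 and 6.61e-05). The mitotic kinase gene Aurka went from 57.8 to 41.3 and 51.2 FPKM on average, and the cyclin B gene Ccnb1 from 76.7 to 59.3 and 71.3. Cdc25b, a phosphatase gene that activates mitotic CDKs, went from 30.1 ± 0.790 to 18.8 ± 0.110 and 21.7 ± 1.06 FPKM (log2 differences -0.65 and 0.20, adjusted p = 6.07e-07 and 0.00642). Ccne1 went the other way, from 25.1 to 40.5 and 33.5 FPKM (adjusted p = 4.83e-07 and 0.00125). Cell division was not measured, and the part of a change in dividing cells in the p53 target values was not tested.

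Around Bax, 22 genes of the BCL2 family, caspases and their partners were listed and 19 tested. With IL-1β 5 rose and 5 fell, and in co-culture against IL-1β alone 2 rose (Cycs and Bok) and 4 fell (Bcl2l1, Bcl2a1, Bid and Casp8), with a median log2 difference of 0.02. Of all tested genes 26.5% rose and 20.2% fell with IL-1β, and 11.9% rose and 10.1% fell in co-culture, so apart from the falls in co-culture (21.1% of the list) these counts are near the background. The 4 that fell include both protective and death-promoting genes, and 2 of them were left without IL-1β replicate 2 or without co-culture replicate 2. The 5 lower calls with IL-1β became 2 without control replicate 2 and 3 without control replicate 1 or 3 or IL-1β replicate 2 or 3. Bcl2l1, which encodes the protective BCL-xL and the death-promoting BCL-xS from 1 gene, was at 19.0, 21.0 and 17.4 FPKM on average in control, IL-1β and co-culture (limma adjusted p = 0.00245 for co-culture against IL-1β alone). Casp8, the initiator caspase of death receptors, was at 5.45 ± 0.308, 10.9 ± 0.607 and 8.25 ± 0.305 FPKM (SD, n = 3 each; log2 differences 0.89 and -0.37, adjusted p = 7.74e-07 and 0.00146). Bid, a death-promoting gene, was at 6.04, 18.3 and 14.3 FPKM on average. Cycs, cytochrome c, was at 289, 273 and 316 FPKM, and processed copies of that gene elsewhere in the genome make its counting uncertain.

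For 2 of the targets, the genes whose log2 levels ran most like theirs were ranked by Pearson r over the 9 libraries. The ranking took in 8230 tested genes that averaged 5 FPKM or more and had no placeholder symbol (such as LOC or RGD). The libraries fall into 3 groups, so r mostly reflects the order of the groups, and no p is given. For Cdkn1a the closest were Hmox1 (r = 0.988), Ddit4l (0.979), Col4a2 (0.978), Fchsd2 (0.974) and Slc48a1 (0.974). Hmox1 was at 142 ± 6.79 FPKM in control, 359.9 ± 16.1 with IL-1β and 116 ± 3.96 in co-culture (SD, n = 3 each). For Mdm2 the closest were Me1 (r = 0.969), Gclm (0.963), Srxn1 (0.951), Lpar1 (0.950) and Sqstm1 (0.946). Sqstm1 was at 164 ± 3.47 FPKM in control, 166 ± 6.86 with IL-1β and 118 ± 1.39 in co-culture, and Me1 at 46.7 ± 0.0624, 51.6 ± 0.644 and 41.3 ± 2.01 FPKM.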

How the data were processed

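RNA of 9 libraries of rat chondrocytes was sequenced after poly(A) capture, 3 libraries in each of 3 groups taken from the sample titles. Chondrocytes came from cartilage digested for 2 h in collagenase II at 0.5 mg/ml and were grown with 10% serum and 1% ITS supplement, per the labels' protocols. Per the file headers, the authors deposited FPKM with 2 decimals for 17588 genes, each library in its own column. A mouse build, GRCm38, stands in the submitters' processing notes, while the samples are rat. Aligner, counter and annotation were not given in the sources used here, nor whether strand was kept, so reads of overlapping or antisense genes may be mixed. Sequences and the synonym for Trp53inp1 came from RefSeq (GRCr8).

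Genes with at least 1 FPKM in at least 3 libraries (11732) were tested on log2(FPKM + 1), a pseudocount of 1, with limma 3.58.1 in R 4.3.3 (mean-variance trend, two-sided, all 9 libraries in 1 fit, Benjamini-Hochberg over all tested genes). Folds are ratios of mean FPKM. On simulated data the fit recovered 50% of log2 changes of 0.25 and 88% of those of 0.5 for IL-1β against control, with 5.68% of calls on unchanged genes, and 48% and 80% for co-culture against IL-1β alone, with 7.51%. The simulation used independent normal noise and changed far fewer genes than were called in the data, so these rates do not carry over to them. The 10 alternatives were pseudocounts of 0.1 and 5, no filter, a mean of at least 5 FPKM, scaling to a common sum, by quantiles or by median of ratios, no trend, a fit of the 6 libraries compared and a replicate block, and each library was also left out in turn.

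The members and lists were chosen with earlier results of these data known, and 1 listed gene is not reported here. Named were all members, and of each list every called gene if fewer than 6, or else the 4 with the smallest p in co-culture against IL-1β alone and the 2 with the smallest p in IL-1β against control. Further p53 regulators and paralogs could be named if tested. Other genes given by symbol among the calls of the other p53 targets and the BCL2 list were chosen after their values were seen. For Cdkn1a and Mdm2 the 5 genes with the highest r were named, among those without a placeholder symbol.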

Additional observations from a re-analysis of the deposited data

How the results depend on the processing

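No gene among the 10 targets reversed its direction past the threshold under the 10 alternative settings or on leaving out 1 library, though the uncalled differences of Plk3 and Eda2r with IL-1β changed sign in some. With IL-1β against control 6 of the 10 were called (5 to 7 over all settings). Co-culture against IL-1β alone gave 10 (7 with a mean of at least 5 FPKM, where only 7 were tested, and 8 to 10 on leaving out 1 library). Of all tested genes 26.5% were called higher and 20.2% lower in the first comparison, and 11.9% and 10.1% in the second. The filter favours the calls of Perp in both and of Eda2r in the second. The shared replicate numbers did not pair the libraries: deviations from group means correlated at -0.0907 to 0.0855 for same-numbered libraries and at -0.0768 to 0.0887 for the others. The replicate block gave 6 and 10 called targets, and 5201, 2266 and 3681 called genes in IL-1β against control, co-culture against IL-1β and co-culture against control, where the fit without it gave 5479, 2581 and 3981. The split of calls with IL-1β was 3109 higher and 2370 lower, against 2249 and 3188 after scaling to a common sum and 2291 and 3332 by quantiles. For co-culture against control it was 2554 and 1427, against 1541 and 2009 by a common sum, 1641 and 2076 by quantiles and 1854 and 1869 by median of ratios. The Bax difference with IL-1β also passed with a pseudocount of 5 (adjusted p = 0.0495) or a mean of at least 5 FPKM (0.0461), and that of Plk2 without control replicate 3 (0.0301). The absolute depth is unknown, so the precision of low genes such as Eda2r and Perp rests on 3 libraries a group alone.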

Other observations

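DNA repair genes were read from a list of 20, all tested. With IL-1β 12 of the 20 rose and 2 fell, where 26.5% and 20.2% of all tested genes were called, with a median log2 difference of 0.20, and 6 rose and 2 fell after scaling the libraries to a common sum or by quantiles. In co-culture against IL-1β alone H2afx was the 1 gene called, and none was called lower by limma, with 4 higher and 2 lower at an unadjusted p under 0.05. Of all tested genes 11.9% were called higher and 10.1% lower there. H2afx, the histone variant that is phosphorylated at DNA breaks, was at 113 ± 0.192, 95.2 ± 1.69 and 102 ± 1.81 FPKM in control, IL-1β and co-culture (SD, n = 3 each; log2 difference 0.10 for co-culture against IL-1β alone, adjusted p = 0.018), and that call was lost with median-of-ratios scaling, without a trend, in a fit of the 6 libraries alone and without IL-1β replicate 2 or 3 (adjusted p up to 0.0673). Fancd2, of the crosslink repair pathway, was at 12.8 ± 0.712, 16.7 ± 0.607 and 15.5 ± 0.487 FPKM and rose with IL-1β (log2 difference 0.36, adjusted p = 0.000208). Against control, the co-culture group had 10 of the 20 higher and 1 lower, where 21.8% and 12.2% of all tested genes were called.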
